A study of Schizosaccharomyces pombe with 6 samples.

Results

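Flocculins are cell surface glycoproteins that make yeast cells stick to each other. The expression of 7 flocculin genes of fission yeast (*gsf2*, *pfl2*, *pfl3*, *pfl4*, *pfl5*, *pfl7* and *pfl9*) and of *mbx2*, which encodes a MADS-box transcription factor that activates flocculin genes, was compared between strains labelled as deleted for *saf5* or *cwf12*, genes that the study counts among splicing regulators, and the wild type. These 8 genes were taken by their identifiers from a table of 7268 genes, and all 8 were among the 6018 genes with enough reads for testing. RNA was sequenced from 6 untreated cultures in YE5S at 30 °C, harvested at an OD600 of 0.5, with 2 biological replicates of each strain. The genotypes in the labels are saf5 and cwf12, which the study describes as deletions (*Δsaf5* and *Δcwf12*), and WT (972). The strain list of the study holds *saf5::NatR leu1-32* h-, *cwf12::KanR leu1-32* h+ and the prototrophic h- strain 972. Whether these stocks were the ones sequenced is not given in the sources used here, so marker, auxotrophy and mating type cannot be told apart from the deletions. The screen of the study addressed the regulation of splicing. None of the 8 genes has an intron in its annotated coding sequence, and introns in untranslated regions were not examined.

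In fission yeast, flocculins carry a secretion signal and long stretches rich in serine and threonine, which are sites of sugar attachment, and several end in a DIPSY domain. Gsf2 is the flocculin behind the galactose-sensitive flocculation of this species, and the *pfl* genes encode related proteins that promote adhesion when overexpressed. Mbx2 and the CSL protein Cbf12 activate these genes, while the Gsf1 and Tup11/Tup12-Ssn6 proteins and the kinase module of Mediator hold them down.

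The sequences show how the genes are related and where short reads are hard to place. All are from the coding strand of the RefSeq genome ASM294v3, and the coordinates given for the genes are also from that build. *pfl3* (SPBC947.04, chromosome II, 669581-672835, minus strand) and *pfl5* (SPBC1289.15, chromosome II, 4421395-4425608, plus strand) share a tandem repeat with a period of 105 bases or 35 codons. The stretches below are the copies of *pfl3* and *pfl4* (SPCC188.09c, chromosome III, 1492788-1496382, minus strand) most like one of *pfl5*, and capitals mark the 60 of 105 bases that all of them share.
pfl3, codons 742 to 776, chromosome II, 670334-670438, minus strand: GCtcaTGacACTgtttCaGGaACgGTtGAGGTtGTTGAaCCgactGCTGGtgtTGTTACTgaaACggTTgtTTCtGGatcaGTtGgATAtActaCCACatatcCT
pfl4, codons 131 to 165, chromosome III, 1494273-1494377, minus strand: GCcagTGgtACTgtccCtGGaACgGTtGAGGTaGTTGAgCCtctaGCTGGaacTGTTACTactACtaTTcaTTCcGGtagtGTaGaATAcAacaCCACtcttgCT
pfl5, codons 335 to 369, chromosome II, 4422415-4422519, plus strand: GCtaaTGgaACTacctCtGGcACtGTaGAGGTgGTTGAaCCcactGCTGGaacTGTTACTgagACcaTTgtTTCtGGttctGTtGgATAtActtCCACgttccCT
Each gene was searched with its own stretch, which counts itself. At 85% identity, the stretch occurred 13 times in *pfl5*, 8 times in *pfl3* and 1 time in *pfl4*. The 1 in *pfl4* is thus the stretch itself, not a repeat. The next pair is the most alike stretch of *pfl7* (SPBC359.04c, chromosome II, 117892-119328, minus strand) and *pfl9* (SPAC186.01, chromosome I, 5527692-5528959, plus strand), shown because these genes are close relatives without repeats of their own. Capitals mark the 92 of 105 bases they share.
pfl7, codons 185 to 219, chromosome II, 118672-118776, minus strand: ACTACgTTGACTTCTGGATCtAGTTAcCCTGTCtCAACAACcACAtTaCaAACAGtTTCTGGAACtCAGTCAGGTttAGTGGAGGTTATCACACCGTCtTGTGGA
pfl9, codons 142 to 176, chromosome I, 5528115-5528219, plus strand: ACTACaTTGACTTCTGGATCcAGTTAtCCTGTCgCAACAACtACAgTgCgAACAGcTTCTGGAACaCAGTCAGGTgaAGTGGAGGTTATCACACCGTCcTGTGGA
The last is the 78-codon repeat of *gsf2* (SPCC1742.01, chromosome III, 959199-966012, minus strand), which is identical in all 234 bases to the copy after it and is shown because it limits the placing of reads. Capitals mark its serine and threonine codons.
gsf2, codons 245 to 322, chromosome III, 963007-963240, minus strand: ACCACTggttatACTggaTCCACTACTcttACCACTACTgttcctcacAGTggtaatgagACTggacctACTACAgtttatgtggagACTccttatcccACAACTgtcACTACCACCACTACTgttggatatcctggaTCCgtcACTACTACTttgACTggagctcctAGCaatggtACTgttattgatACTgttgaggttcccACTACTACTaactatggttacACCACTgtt

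Of all stretches of 150 bases, the length of 1 read, in the coding sequence of *gsf2*, 45.1% occurred more than once in the genome, against 19.0% in *pfl5*, 16.9% in *pfl3* and 9.4% in *pfl2* (SPAPB15E9.01c, chromosome I, 3987033-3991412, minus strand), whose best period was 342 bases. *pfl4*, *pfl7*, *pfl9* and *mbx2* (SPBC317.01, chromosome II, 3626639-3628658, plus strand) had no such stretch (0.0%). How reads with several places were counted is not given in the sources used here, so the levels of the repeat-bearing genes are uncertain, while each gene was counted the same way in every library. Serine and threonine made up 56.3% of the encoded Pfl2, 43.9% of Gsf2, from 26.7% to 36.4% of the other flocculins, and 20.4% of Mbx2. Over whole encoded proteins, Pfl3 and Pfl5 shared 57.3% of the residues of the shorter one, and Pfl7 and Pfl9 shared 51.8%, where Mbx2, unrelated to them, reached from 21.2% to 29.6% against the flocculins. *pfl9*, *pfl5* and *pfl7* lay 50.2, 114.2 and 117.9 kb from a chromosome end, the other members at least 669.6 kb.

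The library totals were from 9113139 to 12054198 counts. Values per library are CPM, counts scaled to library size after TMM scaling (a scaling for library composition), and fold changes are from edgeR's quasi-likelihood test in 1 fit of the 6 libraries. A gene passed at a Benjamini-Hochberg adjusted p under 0.05 over all genes tested. The reads on *saf5* did not support the label of 2 libraries: *saf5* had 220 and 249 counts in the *Δsaf5*-labelled libraries, 355 and 298 in *Δcwf12*, and 323 and 234 in WT (log2 fold change -0.33 against WT, SE 0.15, adjusted p = 0.09 from edgeR). Every direction given for these libraries rests on their label. *cwf12* had 41 and 32 counts in *Δcwf12*, against 556 and 531 in WT. Of the mating type genes, *mat1-Mc* was at 0 in every library, WT included. Whether its reads have several places in the genome was not checked, so this 0 is not read as absence of its RNA. The summed level of 6 M cell markers was 78.0 to 82.3 CPM in the *Δsaf5*-labelled libraries. It was 40.6 to 46.3 CPM in *Δcwf12* and 62.8 to 69.3 CPM in WT. The 3 P cell markers summed to 502.0 to 503.0 CPM in the *Δsaf5*-labelled libraries, 413.0 to 437.0 CPM in *Δcwf12* and 485.0 to 552.0 CPM in WT. Most of the P sum was *sxa1*, with 476 and 475 CPM in the *Δsaf5*-labelled libraries, 416 and 390 in *Δcwf12*, and 458 and 530 in WT. Though listed as a P marker, *sxa1* was lower in *Δcwf12*, whose stock is listed as h+, than in WT, listed as h- (log2 fold change -0.29, adjusted p = 0.014, edgeR). The P sum is therefore not read as a sign of mating type. Of 5 M markers tested, 3 were higher in the *Δsaf5*-labelled libraries than in WT (24.7% of all genes were), namely *mfm1* (log2 fold change 2.25), *mfm3* (1.18) and *mam2* (1.47). In *Δcwf12*, 1 was higher than in WT (25.5% of all genes), *mfm1* (1.44), and 2 were lower (25.0% of all genes), of which *mfm2* by -3.44. Of the 3 P markers, 1 was lower in *Δcwf12*. Against *Δcwf12*, *mfm2* (3.45), *mfm3* (2.33) and *mam2* (1.33) were more than 2-fold higher in the *Δsaf5*-labelled libraries (edgeR). Counts were low: *mfm1* had 14 and 17 in the *Δsaf5*-labelled libraries, 12 and 7 in *Δcwf12*, and 4 and 2 in WT. *mfm3* had 12 and 17, 3 and 3, and 6 and 6 in the same order. Against WT, the adjusted p was 0.033 for *mfm3* in the *Δsaf5*-labelled libraries and 0.049 for *mfm1* in *Δcwf12* (edgeR). The part of mating type in the results was not tested.

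Among the 8 genes, *pfl7* fell most in both mutants, by 6.6-fold in the *Δsaf5*-labelled libraries and 5.82-fold in *Δcwf12*, and *pfl3* also fell in both. *pfl2*, the flocculin gene with the most reads, fell in the *Δsaf5*-labelled libraries and did not pass in *Δcwf12*. *gsf2* was lower in both, by less than 2-fold and in the *Δsaf5*-labelled libraries with a call that depended on single libraries, and *mbx2* did not pass in either. In the *Δsaf5*-labelled libraries, 2 members were higher than in WT (24.7% of all genes tested were) and 4 were lower (25.5% of all genes). With a fold change of at least 2, 1 of the 8 was lower (2.49% of all genes), and none was higher (6.2% of all genes). In *Δcwf12*, 1 member was higher than in WT (25.5% of all genes) and 3 were lower (25.0% of all genes), of which 2 by at least 2-fold (2.64% of all genes). No member rose 2-fold there (7.31% of all genes did). The median log2 fold change of the 8 was -0.18 in the *Δsaf5*-labelled libraries (0.02 over all genes) and 0.15 in *Δcwf12* (0.0 over all genes). Many genes passed in each contrast, and nothing particular to the 8 genes is read from these counts. Both contrasts share the WT libraries. The 2 higher members became 0 without the first *Δsaf5*-labelled library and 1 without any other single library, and the 1 higher in *Δcwf12* became 0 without *Δcwf12* library 1 and 2 without WT library 1. DESeq2 called 0 members higher in either mutant, where edgeR had called these 2 and this 1.

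**Figure D1:**
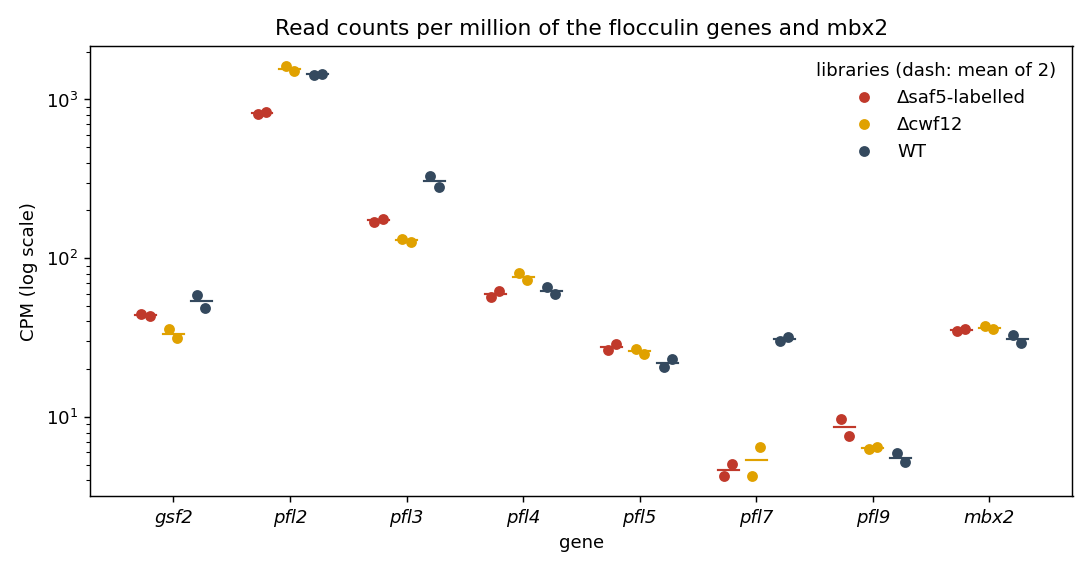
CPM on a log axis for each of the 8 genes, with 1 point per library, the *Δsaf5*-labelled libraries at the left, *Δcwf12* in the middle and WT at the right, and a dash at the mean of 2. *pfl7* was between 4.27 and 6.44 CPM in the 4 mutant libraries, against 29.9 and 31.8 CPM in WT.

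*pfl7* encodes a DIPSY family glycoprotein. It had 43 and 49 counts in the *Δsaf5*-labelled libraries, 49 and 63 in *Δcwf12*, and 278 and 299 in WT. This came to 4.27 and 5.07 CPM in the *Δsaf5*-labelled libraries, 4.27 and 6.44 CPM in *Δcwf12*, and 29.9 and 31.8 CPM in WT. Both WT libraries stood far above the 4 mutant ones, which overlapped each other. The fall was 6.6-fold in the *Δsaf5*-labelled libraries (log2 fold change -2.72, SE 0.19, adjusted p = 3.5e-07, edgeR quasi-likelihood test). In *Δcwf12* it was 5.82-fold (log2 fold change -2.54, SE 0.18, adjusted p = 2.8e-07, edgeR). By size, these were number 13 and number 23 among all genes lower in the same contrast. The difference between the mutants was -0.18 (SE 0.24, adjusted p = 0.55, edgeR). In RNA from whole cultures, fewer cells that express a gene and less RNA per cell cannot be told apart.

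*pfl9* encodes the DIPSY family glycoprotein shown beside *pfl7* above. It had 9.74 and 7.65 CPM in the *Δsaf5*-labelled libraries, 6.28 and 6.44 CPM in *Δcwf12*, and 5.93 and 5.20 CPM in WT, from 49 to 98 counts. The strains did not overlap, with WT lowest. Against WT, the log2 fold change was 0.65 (SE 0.21, adjusted p = 0.021) in the *Δsaf5*-labelled libraries and 0.19 (SE 0.22, adjusted p = 0.49) in *Δcwf12* (edgeR). The first call was lost without the first library labelled *Δsaf5* (0.46, adjusted p = 0.17) and without WT library 2 (0.56, adjusted p = 0.055), and DESeq2 gave an adjusted p of 0.088. Against *Δcwf12*, the log2 fold change in the *Δsaf5*-labelled libraries was 0.45 (SE 0.20, adjusted p = 0.072, edgeR), a difference that passed without WT library 1 (0.45, adjusted p = 0.04) or WT library 2 (0.47, adjusted p = 0.031).

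*pfl3* and *pfl5*, which share a repeat, encode glycoproteins of the same family. *pfl3* had 170 and 177 CPM in the *Δsaf5*-labelled libraries, 132 and 127 CPM in *Δcwf12*, and 330 and 282 CPM in WT. The 3 strains did not overlap, and *Δcwf12* was lowest. The log2 fold change against WT was -0.82 (SE 0.08, adjusted p = 7.8e-06) in the *Δsaf5*-labelled libraries and -1.24 (SE 0.08, adjusted p = 1.6e-07) in *Δcwf12* (edgeR). *pfl5* had 26.6 and 28.7 CPM in the *Δsaf5*-labelled libraries, 26.9 and 25.1 CPM in *Δcwf12*, and 20.8 and 23.2 CPM in WT. Both mutants lay above WT and overlapped each other. Its log2 fold change was 0.33 (SE 0.12, adjusted p = 0.031) in the *Δsaf5*-labelled libraries and 0.24 (SE 0.12, adjusted p = 0.1) in *Δcwf12* (edgeR). The first did not pass when 1 library was left out, except WT library 2: the value was 0.26 without WT library 1 (adjusted p = 0.11), 0.39 and 0.28 without the first and second library labelled *Δsaf5* (adjusted p = 0.056 and 0.15), and 0.34 without either *Δcwf12* library (adjusted p = 0.056 each). DESeq2 gave an adjusted p of 0.13, and a fit of the 2 strains alone gave 0.063.

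*pfl4*, which encodes the flocculin Pfl4 and showed no repeat of its own, had 57.2 and 61.8 CPM in the *Δsaf5*-labelled libraries, 80.2 and 73.3 CPM in *Δcwf12*, and 65.6 and 59.5 CPM in WT. The *Δsaf5*-labelled libraries overlapped with WT, and both *Δcwf12* libraries were above all others. The log2 fold change was -0.07 (SE 0.08, adjusted p = 0.5) in the *Δsaf5*-labelled libraries and 0.30 (SE 0.08, adjusted p = 0.009) in *Δcwf12* (edgeR). The rise in *Δcwf12* was not called by DESeq2 (adjusted p = 0.059) or without *Δcwf12* library 1 (0.22, adjusted p = 0.14).

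*gsf2* had 44.4 and 43.2 CPM in the *Δsaf5*-labelled libraries, 35.8 and 31.3 CPM in *Δcwf12*, and 58.8 and 48.6 CPM in WT. The strains did not overlap, but the WT libraries were far apart. In *Δcwf12* the log2 fold change was -0.68 (SE 0.11, adjusted p = 2.4e-04, edgeR), and it passed in all 6 fits that left out a library. In the *Δsaf5*-labelled libraries it was -0.29 (SE 0.11, adjusted p = 0.035, edgeR), and this call passed in only 1 of the 6 fits, the one without WT library 2. The value was -0.15 without WT library 1 (adjusted p = 0.23), -0.31 and -0.27 without the first and second library labelled *Δsaf5* (adjusted p = 0.12 and 0.15), and -0.29 without either *Δcwf12* library (adjusted p = 0.054 each). DESeq2 gave -0.31 with an adjusted p of 0.092.

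*pfl2* encodes the flocculin with the highest serine and threonine content here. It had 810 and 839 CPM in the *Δsaf5*-labelled libraries, 1615 and 1505 CPM in *Δcwf12*, and 1431 and 1451 CPM in WT. The *Δsaf5*-labelled libraries were far below the other 4, and *Δcwf12* was slightly above WT. The log2 fold change was -0.80 (SE 0.09, adjusted p = 2.5e-05) in the *Δsaf5*-labelled libraries and 0.11 (SE 0.09, adjusted p = 0.32) in *Δcwf12* (edgeR).

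*mbx2*, the gene of the activator, passed in neither contrast with WT. It had 34.8 and 36.1 CPM in the *Δsaf5*-labelled libraries, 37.3 and 35.7 CPM in *Δcwf12*, and 33.1 and 29.2 CPM in WT. All 4 mutant libraries were above both WT libraries by a small margin. The log2 fold change was 0.19 (SE 0.10, adjusted p = 0.14) in the *Δsaf5*-labelled libraries and 0.23 (SE 0.10, adjusted p = 0.074) in *Δcwf12* (edgeR). The *Δcwf12* difference passed without WT library 1 (0.32, adjusted p = 0.022). RNA levels do not show the amount or activity of the Mbx2 protein.

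**Figure D2:**
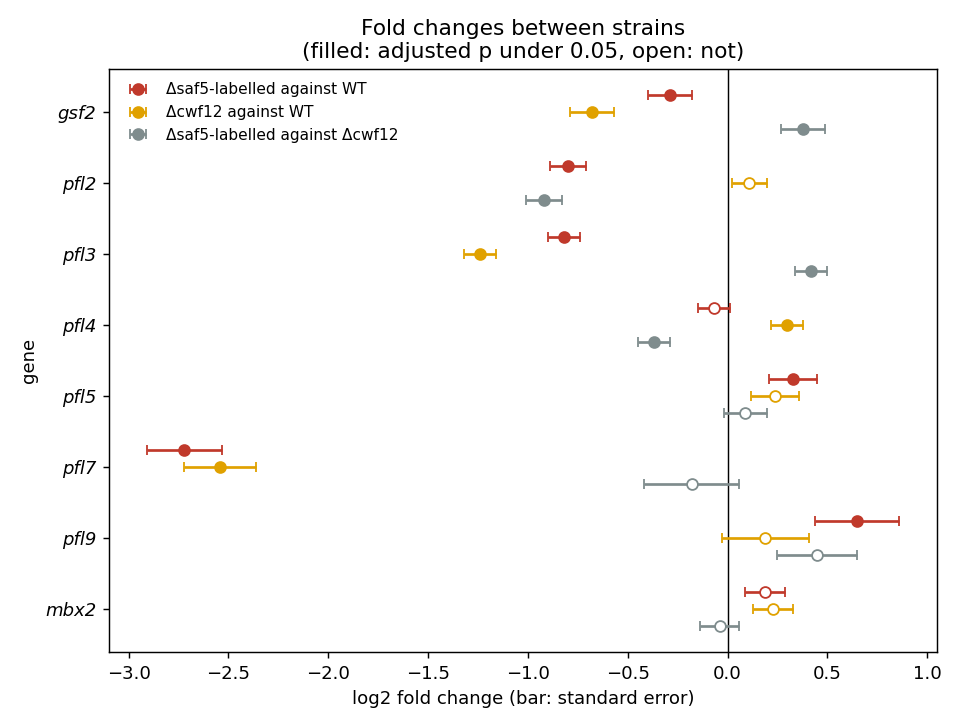
Log2 fold change (horizontal axis, bars for the standard error) of each gene in the *Δsaf5*-labelled libraries against WT, in *Δcwf12* against WT and between the mutants, with filled points at an adjusted p under 0.05. *pfl7* stood at -2.72 and -2.54 against WT, and *mbx2* at 0.19 and 0.23 with open points.

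The mutants were also set against each other directly. In the *Δsaf5*-labelled libraries, 2 of the 8 genes were higher than in *Δcwf12* (25.4% of all genes tested were) and 2 were lower (27.8% of all genes). None differed by 2-fold (3.95% of all genes were that much higher and 4.62% that much lower). *pfl2* differed most: it was lower in the *Δsaf5*-labelled libraries than in *Δcwf12* by a log2 fold change of -0.92 (SE 0.09, adjusted p = 5.6e-06, edgeR). *pfl4* was also lower there (-0.37, SE 0.08, adjusted p = 0.0024, edgeR), a call lost without *Δcwf12* library 1 (-0.29, adjusted p = 0.06). *pfl3* (0.42, SE 0.08, adjusted p = 0.0012) and *gsf2* (0.38, SE 0.11, adjusted p = 0.011) were higher in the *Δsaf5*-labelled libraries (edgeR). The *gsf2* call was lost without the first library labelled *Δsaf5* (0.36, adjusted p = 0.079), without the second (0.40, adjusted p = 0.052) and without *Δcwf12* library 2 (0.31, adjusted p = 0.1). *pfl5* (0.09, SE 0.11, adjusted p = 0.53) and *mbx2* (-0.04, SE 0.10, adjusted p = 0.73) did not pass.

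The summed level of the 7 flocculin genes was dominated by *pfl2*. The sum was 1122 and 1163 CPM in the *Δsaf5*-labelled libraries, 1901 and 1775 CPM in *Δcwf12*, and 1942 and 1901 CPM in WT. The *Δsaf5*-labelled libraries were the low ones, and *Δcwf12* library 1 was level with the lower WT library. *pfl2* made up 72.2% of the sum in both *Δsaf5*-labelled libraries, 85.0% and 84.8% in *Δcwf12*, and 73.7% and 76.3% in WT. Without *pfl2*, the sum was 312 and 324 CPM in the *Δsaf5*-labelled libraries, 286 and 270 CPM in *Δcwf12*, and 511 and 451 CPM in WT, so that both mutants lay below WT. Most of this difference lay in *pfl3*, with means of 173 CPM in the *Δsaf5*-labelled libraries, 130 in *Δcwf12* and 306 in WT. *pfl5* and *pfl9* in both mutants, and *pfl4* in *Δcwf12*, were not below WT. With 2 libraries per strain an exact permutation test cannot reach a p under 0.05, and the sums were not tested.

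**Figure D3:**
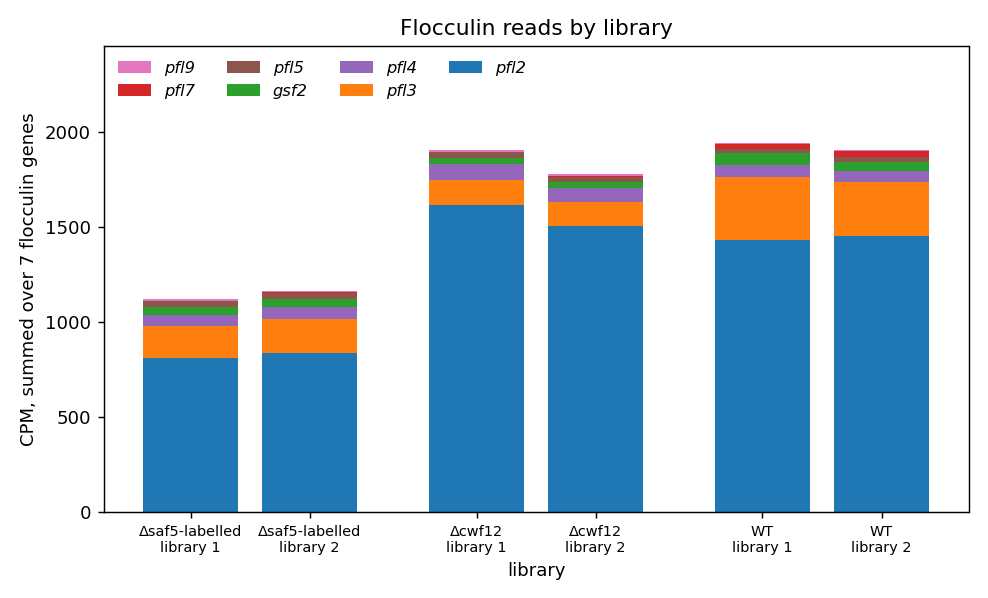
CPM of the 7 flocculin genes stacked from 0, with 1 bar per library and 1 colour per gene (*pfl2* at the bottom). The bars of the *Δsaf5*-labelled libraries reach 1122 and 1163 CPM, those of *Δcwf12* 1901 and 1775 CPM, and those of WT 1942 and 1901 CPM.

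Levels were compared between genes per kb of the length that the deposited table lists for each gene. *pfl2* was the highest in every strain, with 189.3 ± 4.79 CPM per kb in the *Δsaf5*-labelled libraries, 358.1 ± 17.8 in *Δcwf12* and 330.8 ± 3.26 in WT (SD, n = 2 each). This put it at the 91.5th to 94.6th percentile of all genes tested, and *pfl3* and *pfl4* followed it in each strain. The other members were low. In WT, *pfl7* came 4th with 9.09 ± 0.377 CPM per kb, ahead of *gsf2* with 7.88 ± 1.06, *mbx2* with 5.12 ± 0.45, *pfl5* with 4.67 ± 0.355 and *pfl9* with 3.71 ± 0.34 (SD, n = 2), where *mbx2* and *pfl5* overlapped. In both mutants *pfl7* was last, with 1.38 ± 0.165 CPM per kb in the *Δsaf5*-labelled libraries and 1.58 ± 0.451 in *Δcwf12* (SD, n = 2 each), at the 2.56th and 3.99th percentile of all genes. Between *pfl4* and *pfl7*, the *Δsaf5*-labelled libraries had *gsf2*, *pfl5*, *mbx2* and *pfl9* in that order, at 6.43 to 5.8 CPM per kb, with *pfl9* overlapping the other 3. *Δcwf12* had *mbx2*, *pfl5*, *gsf2* and *pfl9* there, at 6.0 to 4.25 CPM per kb and without overlap. The listed length exceeded the ASM294v3 span of *mbx2* 3.01 times and that of *pfl7* 2.36 times. Per kb of coding sequence, *mbx2* therefore stood higher, at 31.7 CPM per kb in the *Δsaf5*-labelled libraries, 32.6 in *Δcwf12* and 27.8 in WT, next after *pfl4* in both mutants and after *pfl7* in WT. *pfl7* had 4.34 CPM per kb of coding sequence in the *Δsaf5*-labelled libraries, 4.97 in *Δcwf12* and 28.7 in WT, and it was last in both mutants on this scale too.

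Some neighbours passed in the same direction as a member, and others did not. Of all genes tested, 24.7% were higher and 25.5% lower in the *Δsaf5*-labelled libraries than in WT. In *Δcwf12*, 25.5% were higher and 25.0% lower. A direction shared with a neighbour is therefore not read as particular to a locus. For each gene, the nearest genes of the count table on both sides and any overlapping gene of that table were examined, and distances are between annotated ends in ASM294v3. The listed length of *mbx2* was 6079 and that of *pfl7* 3395, against spans of 2020 and 1437 in ASM294v3. The listed lengths of *pfl3* (4262 against a span of 3255), *pfl5* (4707 against 4214) and *pfl9* (1498 against 1268) were also longer. As counted, these genes may thus reach toward or into their neighbours, which was not checked. Every member but *pfl9* is overlapped in that annotation by noncoding RNA on the other strand, from 1 such gene at *gsf2*, *pfl7* and *mbx2* to 3 at *pfl2* and *pfl4*. Of these genes only 1 each at *pfl2*, *pfl3*, *pfl4* and *mbx2* was matched in the table, and the others were not analysed here. Upstream of *pfl7*, 1249 bases away on the other strand, the noncoding RNA SPNCRNA.293 had 15 and 28 counts in the *Δsaf5*-labelled libraries, 31 and 24 in *Δcwf12*, and 75 and 87 in WT. It was lower in both mutants, as *pfl7* was, with log2 fold changes of -1.98 (SE 0.28, adjusted p = 1.1e-04) in the *Δsaf5*-labelled libraries and -1.74 (SE 0.26, adjusted p = 1.5e-04) in *Δcwf12* (edgeR). The neighbour on the other side, SPNCRNA.292, had 8 counts or fewer in each library and was not tested.

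At *pfl2*, the coding gene SPAPB18E9.05c, 113 bases downstream on the same strand, had 1028 and 967 counts in the *Δsaf5*-labelled libraries, 2134 and 1857 in *Δcwf12*, and 1362 and 1371 in WT. Its log2 fold change was -0.53 (SE 0.06, adjusted p = 3.6e-05) in the *Δsaf5*-labelled libraries, where *pfl2* fell too, and 0.36 (SE 0.06, adjusted p = 3.8e-04) in *Δcwf12* (edgeR). SPNCRNA.954, which overlaps *pfl2* on the other strand, moved the same way, by -0.41 (SE 0.12, adjusted p = 0.016) in the *Δsaf5*-labelled libraries and by 0.73 (SE 0.11, adjusted p = 1.9e-04) in *Δcwf12* (edgeR). The library kit is described as stranded, but the strand setting of the counting is not given in the sources used here, so reads from opposite strands may not be separated at any member but *pfl9*, *pfl7* included.

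At *mbx2*, the overlapping antisense RNA SPNCRNA.1626 had 793 and 704 counts in the *Δsaf5*-labelled libraries, 2055 and 1722 in *Δcwf12*, and 883 and 1140 in WT. It thus had more counts than *mbx2* itself, which had 350 and 349 counts in the *Δsaf5*-labelled libraries, 428 and 349 in *Δcwf12*, and 307 and 275 in WT. The antisense RNA fell in the *Δsaf5*-labelled libraries (-0.51, SE 0.10, adjusted p = 0.0011) and rose in *Δcwf12* (0.72, SE 0.09, adjusted p = 4.9e-05), while *mbx2* passed in neither (edgeR). The 2 flanking genes, which *mbx2* as counted may reach, were higher in both mutants. SPNCRNA.1625, 762 bases upstream on the other strand, was higher by 1.0 in the *Δsaf5*-labelled libraries (SE 0.09, adjusted p = 5.2e-06) and by 1.01 in *Δcwf12* (SE 0.09, adjusted p = 2.9e-06) on the log2 scale (edgeR). SPBP8B7.32, on the downstream side, was higher by 0.63 in the *Δsaf5*-labelled libraries (SE 0.08, adjusted p = 6.3e-05) and by 0.62 in *Δcwf12* (SE 0.08, adjusted p = 5.2e-05).

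**Figure D4:**
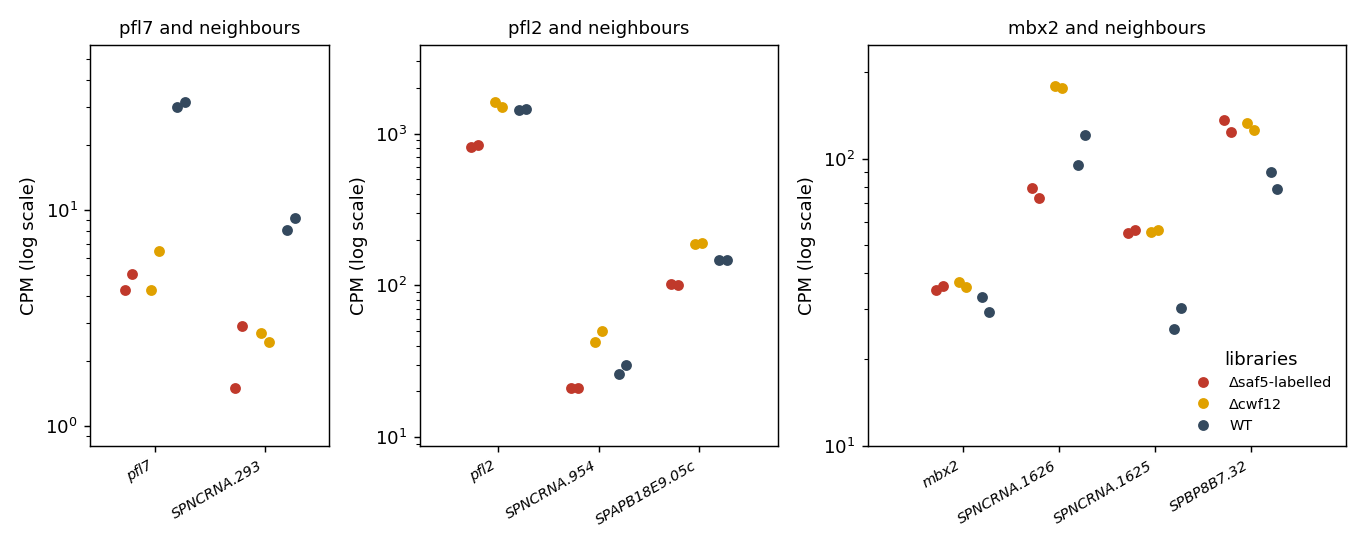
CPM on log axes of *pfl7*, *pfl2* and *mbx2* beside annotated neighbours, 1 point per library, with the *Δsaf5*-labelled libraries at the left, *Δcwf12* in the middle and WT at the right of each gene. These 3 loci were chosen for display after their values were seen. SPNCRNA.293 was low in all 4 mutant libraries like *pfl7*, and SPNCRNA.1626 was highest in *Δcwf12*, while *mbx2* did not pass.

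At the other members, the direction of neighbours often differed from that of the member. Beside *pfl3*, which fell in both mutants, the ferric-chelate reductase gene *frp2* had 173 and 136 counts in the *Δsaf5*-labelled libraries, 152 and 115 in *Δcwf12*, and 48 and 32 in WT. It was higher in both mutants, by 1.87 (SE 0.22, adjusted p = 3.0e-05) in the *Δsaf5*-labelled libraries and by 1.55 (SE 0.22, adjusted p = 1.0e-04) in *Δcwf12* (log2, edgeR). On the other side of *pfl3*, SPNCRNA.322 fell in *Δcwf12* (-1.23, SE 0.19, adjusted p = 2.0e-04) and had a value of 0.21 in the *Δsaf5*-labelled libraries (SE 0.17, adjusted p = 0.32). SPNCRNA.1201, antisense to *pfl4*, was higher in the *Δsaf5*-labelled libraries (1.43, SE 0.27, adjusted p = 9.9e-04) and in *Δcwf12* (0.79, SE 0.29, adjusted p = 0.039, log2, edgeR). The pseudogene SPCC188.10c on the upstream side of *pfl4* was higher in *Δcwf12* (0.55, SE 0.09, adjusted p = 2.9e-04), as *pfl4* was, and the gene downstream, *ubp5*, passed in neither mutant. Beside *pfl5*, the Tf2-11 retrotransposon was higher in *Δcwf12* (2.31, SE 0.23, adjusted p = 4.4e-06, edgeR), but it has near-identical copies in the genome, so its count is uncertain. *cao2* beside *pfl5*, SPNCRNA.1164 beside *gsf2* and SPAPB15E9.02c beside *pfl2* passed in no contrast. SPNCRNA.478 beside *gsf2* had 0 counts in every library, and SPNCRNA.1379, antisense to *pfl3*, had at most 12. Neighbours of *pfl9* had at most 14 counts in a library and were not tested.

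Promoters were searched on both strands for sites of the transcription factors above, from 250 bases before to 50 after each annotated gene start. The CSL site GTGGGAA occurred in 1.78% of 5112 promoters and in none of the 8, and the CSL site GTGAGAA in 3.25% of promoters and in that of *pfl9*. The CArG box, searched as CC and GG with only A or T between, occurred in 1.76% of promoters and in none of the 8. Whether Mbx2 binds this form was not checked. Other forms of MADS-box site and bases farther upstream were not searched, so the absence of Mbx2 sites is not read from this. *mbx2*, *pfl7* and *pfl9* have no annotated 5′UTR, so their window lay around the start codon.

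Of 18 names in a list of flocculation regulators, 17 were matched and tested. The list also held *mbx1* and *map1*, entered as the other MADS-box proteins of fission yeast. In the *Δsaf5*-labelled libraries, 10 were lower than in WT and 1 was higher (25.5% and 24.7% of all genes), with a median log2 fold change of -0.3, where that of all genes was 0.02. In *Δcwf12*, 6 were lower and 1 was higher (25.0% and 25.5% of all genes), with a median of -0.11, where that of all genes was 0.0. Between the mutants, 6 were lower and 1 was higher in the *Δsaf5*-labelled libraries than in *Δcwf12* (27.8% and 25.4% of all genes). The corepressor gene *ssn6* had 61.9 and 71.2 CPM in the *Δsaf5*-labelled libraries, 152 and 153 CPM in *Δcwf12*, and 142 and 187 CPM in WT. Its log2 fold change in the *Δsaf5*-labelled libraries was -1.31 against WT (SE 0.11, adjusted p = 2.3e-06) and -1.20 against *Δcwf12* (SE 0.11, adjusted p = 3.2e-06, edgeR). *map1*, the MADS-box regulator of P cell genes, had 7.65 and 8.58 CPM in the *Δsaf5*-labelled libraries, 2.88 and 2.56 CPM in *Δcwf12*, and 3.99 and 2.02 CPM in WT. It was higher in the *Δsaf5*-labelled libraries (log2 fold change 1.43 against WT, SE 0.27, adjusted p = 0.001, and 1.57 against *Δcwf12*, SE 0.27, adjusted p = 4.4e-04, edgeR).

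Of the CSL genes, *cbf12*, an activator of adhesion, was lower in the *Δsaf5*-labelled libraries (-0.55, SE 0.10, adjusted p = 8.0e-04) and in *Δcwf12* (-0.32, SE 0.10, adjusted p = 0.018), and *cbf11*, which opposes it, fell in the *Δsaf5*-labelled libraries (-0.72, SE 0.07, adjusted p = 3.9e-06) and rose slightly in *Δcwf12* (0.17, SE 0.06, adjusted p = 0.042). The study placed the only intron of *cbf11* among those retained most without Saf5. Counts per gene do not separate spliced from unspliced RNA, so these values do not give the level of spliced *cbf11* RNA. *adn2* and *adn3*, which promote adhesion, were lower in both mutants. So was *lkh1*, the LAMMER kinase gene whose loss makes cells flocculate, with a log2 fold change of -0.31 in the *Δsaf5*-labelled libraries (SE 0.08, adjusted p = 0.0052) and -0.26 in *Δcwf12* (SE 0.07, adjusted p = 0.013, edgeR). *gsf1*, *mbx1* and the 4 genes of the Mediator kinase module (*srb8*, *med13*, *srb10* and *srb11*) passed in neither contrast with WT. Activators and repressors of flocculation were thus both among the genes that fell.

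**Figure D5:**
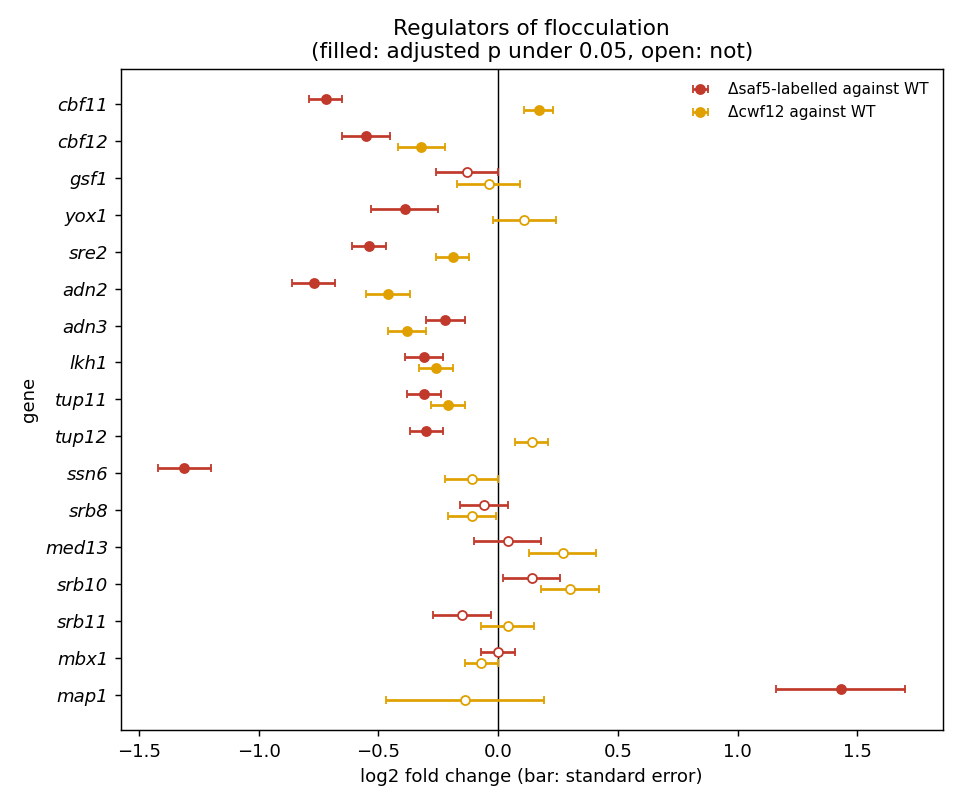
Log2 fold change against WT (horizontal axis, bars for the standard error) of 17 genes in the *Δsaf5*-labelled libraries and in *Δcwf12*, with filled points at an adjusted p under 0.05. The genes were listed as regulators of flocculation, with *mbx1* and *map1* entered as MADS-box proteins. *ssn6* at -1.31 and *map1* at 1.43 in the *Δsaf5*-labelled libraries were the farthest from 0.

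Of 6 other surface adhesins and agglutinins, 4 were tested, and *pfl6* and SPBC1348.08c had 3 counts or fewer in each library. *pfl8* had 39.0 and 40.6 CPM in the *Δsaf5*-labelled libraries, 57.0 and 53.0 CPM in *Δcwf12*, and 57.2 and 52.7 CPM in WT. Like *pfl2*, it was lower in the *Δsaf5*-labelled libraries (-0.47, SE 0.09, adjusted p = 8.4e-04), with 0.00 in *Δcwf12* (SE 0.08, adjusted p = 0.98) (log2 fold changes, edgeR). Of the 4, 1 was higher and 1 lower in the *Δsaf5*-labelled libraries than in WT (24.7% and 25.5% of all genes), and in *Δcwf12* 1 was lower (25.0% of all genes), shares near those of all genes. The agglutinin genes *map4* and *mam3* were each higher in the *Δsaf5*-labelled libraries than in *Δcwf12*, by 0.54 (SE 0.11, adjusted p = 0.0018) and 0.61 (SE 0.12, adjusted p = 9.0e-04).

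Of 23 cell wall glucan enzymes tested, 5 were higher and 9 lower in the *Δsaf5*-labelled libraries than in WT (24.7% and 25.5% of all genes), and 6 were higher and 13 lower in *Δcwf12* (25.5% and 25.0% of all genes). The median log2 fold change was 0.07 in the *Δsaf5*-labelled libraries (0.02 over all genes) and -0.37 in *Δcwf12* (0.0 over all genes). Past 2-fold, *eng1*, an endoglucanase gene of cell separation, fell by 2.10 in the *Δsaf5*-labelled libraries and by 1.33 in *Δcwf12*, and *agn1*, the α-glucanase gene of the same process, by 1.33 in the *Δsaf5*-labelled libraries and by 1.19 in *Δcwf12* (log2, edgeR). *gas5* fell by 1.01 in the *Δsaf5*-labelled libraries, and *psu2* by 1.04 in *Δcwf12* from 9 and 14 counts there. Against *Δcwf12*, *gas2* (1.34), *bgl2* (1.33) and *psu2* (1.61) were more than 2-fold higher in the *Δsaf5*-labelled libraries (log2, edgeR).

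The genes with the pattern most like that of *gsf2* and *mbx2* over the 6 libraries were sought among coding genes whose range was at least 0.5 times as wide. *ibp1*, *rev7* and *atp25* followed *gsf2*, each with a Pearson r of 0.993 of log2 CPM over 6 libraries and among 2796 genes compared. *cdc123* (r = 0.989), SPBC16G5.17 (r = 0.988) and *ccs1* (r = 0.987) followed *mbx2* among 4751 genes. *ibp1* had 45.2 and 46.4 CPM in the *Δsaf5*-labelled libraries, 37.2 and 34.3 CPM in *Δcwf12*, and 62.3 and 51.9 CPM in WT, with WT library 1 above WT library 2, as in *gsf2*. These are descriptions of 6 libraries that share strain, library and scaling. The genes named were the highest of many compared, and no link to *gsf2* or *mbx2* is read from them.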

How the data were processed

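The deposited values are counts of reads per gene, unnormalized. Per the labels and the methods, the authors made stranded mRNA libraries, sequenced paired reads of 150 nt, trimmed with Trimmomatic, mapped to ASM294v2 with STAR, counted with HTSeq and tested with DESeq2. Versions, annotation release, feature type and strand setting are not given in the sources used here. The table also lists a deposited length per gene, taken as nucleotides, and how it was made is not given. Replicates were 2 biological cultures per strain. The p-values rest on a spread per gene that was estimated over all strains together and moderated across genes. WT replicates differed most, so this spread may be too small for contrasts with WT.

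From the counts, edgeR 4.0.16 (R 4.3.3) was run with filterByExpr by strain (6018 of 7268 genes kept), TMM factors, 1 quasi-likelihood fit of the 6 libraries by strain (3 residual degrees of freedom), and Benjamini-Hochberg adjustment. An SE is the size of a log2 fold change over the root of its F value. Totals were 9113139 to 12054198 counts. Replicates differed beyond sampling noise in every strain (chi-square per degree of freedom 6.08 in the *Δsaf5*-labelled libraries, 1.99 in *Δcwf12* and 21.9 in WT). No column was left unmapped. The script was tested on simulated data. The fit was repeated with DESeq2 1.42.0, with RLE factors, without a filter, with a minimum of 10 counts in every library, on pairs of strains alone, with a block for the replicate number, against a 1.5-fold threshold, and without each library. Levels were repeated on coding length.

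Names, positions and sequences came from RefSeq ASM294v3, which matched 6846 of 7268 identifiers, while counts were made on ASM294v2. Proteins were translated from the genome and aligned globally with Biopython 1.88. Repeats were searched at 85% identity. The members, gene lists and rules were chosen with earlier results of these data known. Named were all members, their neighbours, list and marker genes past 2-fold, and the 3 coding genes most like *gsf2* and *mbx2*. Other list genes, and 3 loci for display, were named after their values were seen. *rfl1*, *crh1* and *crh2* had no match. Intron splicing was not analysed here.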

Additional observations from a re-analysis of the deposited data

Results flagged for a closer look

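For 4 of the 8 genes the change against WT differed between the mutants by edgeR's test of that difference itself. Of all genes, 25.4% were higher and 27.8% lower in the *Δsaf5*-labelled libraries than in *Δcwf12*, so the count sets these genes apart little. The log2 fold change in the *Δsaf5*-labelled libraries minus that in *Δcwf12* was -0.92 for *pfl2*, -0.37 for *pfl4*, 0.42 for *pfl3* and 0.38 for *gsf2*. *pfl3* and *gsf2* fell in both strains, and more in *Δcwf12*, while *pfl2* fell in the *Δsaf5*-labelled libraries and *pfl4* rose in *Δcwf12*. The calls of *pfl2* and *pfl3* passed in all 6 fits that left out a library, that of *pfl4* in 5 and that of *gsf2* in 3. Groups of 2 libraries are too small to look for a single deviating library.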

How the results depend on the processing

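Over 12 alternatives, 80 of 96 fold changes kept their direction and side of the threshold for the *Δsaf5*-labelled libraries against WT, 93 of 96 for *Δcwf12* against WT and 87 of 96 between the mutants. Between the mutants, 2 that had not passed changed sign: *pfl7* ranged from -0.45 to 0.14 over the fits without 1 library (0.14 without *Δcwf12* library 2), and *mbx2* from -0.07 to 0.0 (0.0 without *Δcwf12* library 1). In the *Δsaf5*-labelled libraries against WT, the count of higher genes was 2, but 0 by DESeq2, 0 in the test against 1.5-fold and 1 with only the strains compared. In *Δcwf12* against WT the count of 1 became 0 by DESeq2 and 0 in the test against 1.5-fold. Between the mutants, the test against 1.5-fold left 0 higher and 1 lower. When each library was left out in turn, the higher counts ran from 0 to 1 in the *Δsaf5*-labelled libraries against WT, from 0 to 2 in *Δcwf12* against WT and from 1 to 3 between the mutants, and the lower count between the mutants from 1 to 2. A strain left with 1 library was assumed to vary like the others, though WT replicates differed most, so calls gained without a WT library (*mbx2* in *Δcwf12*, *pfl9* between the mutants) rest on the smaller spread of the mutants. Samples with the same replicate number did not deviate together (correlations of 0.040, -0.013 and -0.028), and a fit with the replicate block changed no call: 2 genes were higher and 4 lower in the *Δsaf5*-labelled libraries against WT, 1 higher and 3 lower in *Δcwf12* against WT, and 2 higher and 2 lower between the mutants. RLE factors moved none of 48 levels, and coding length moved all 24 levels per kb. The low counts of *pfl9* and *pfl7* limit how small a difference could be seen. The causes were not tested.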
